A study of Mus musculus with 4 samples.

Results

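Thymocytes carrying the chemokine receptor CXCR3 were compared with thymocytes lacking it, both sorted from mice with a CIITA transgene, by setting 1 expression array of each population against the other. These are 2 of the 4 arrays of a mouse series on Eomes+ natural Th1 cells, all made from C57BL/6 animals at 8 weeks of age with 300 ng of total RNA per array. The nTh1 array held CD4+CD62L+CXCR3+ thymocytes of CIITAtg mice, and the TT naive array held CD4+CD62L+CXCR3- thymocytes of CIITAtg mice. The other arrays held CD4+CD62Lhi spleen cells of wild-type mice, labelled naive, and cTh1 cells, which are such spleen cells after 5 days of culture with CD3/CD28 beads, 2 ng/ml of IL-12, 50 U/ml of IL-2 and anti-IL-4. Both sorted thymocyte populations share the transgene, so no array of the comparison shows thymocytes without it. Which promoter drives the transgene, and whether animals were pooled, was not given in the sources used here. Genes were read from probe sets with exactly 1 gene symbol, taking for each gene the probe set whose mean across all 4 arrays was highest, which gave 22180 genes. Values are log2 expression values, a difference is nTh1 minus TT naive, and 4 values in a row stand in the order TT naive, nTh1, the array labelled naive, cTh1.

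Th1 cells are the CD4 T cells that make interferon gamma. They arise when IL-12 signals through STAT4 and induce the T-box factor T-bet, and CXCR3 takes them to sites where interferon-induced chemokines are made. Eomes is the sister factor of T-bet and is known from memory CD8 T cells, NK cells and some thymocytes that acquire effector features before they leave the thymus. CIITA switches on MHC class II genes, and a CIITA transgene in thymocytes is known to let CD4 T cells be selected by other thymocytes, a route linked to innate-like properties.

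With 1 array per population no difference has a replicate check, no p-value is given, and precision is limited by the number of arrays. As an error, the files allow just the spread of the difference among probe sets of 1 gene, with an SD of 0.257 on the log2 scale over 455 genes. It leaves out animals, sorts and arrays. A difference of 2-fold, the size at which genes were counted, is 3.90 times that SD. Genes entered the counts when at least 1 of the 2 arrays reached 6.61, the median of all values, and 12435 genes did. A gene at or past 2-fold is called higher or lower in nTh1, by size alone. In all, 175 genes (1.41%) were called higher and 136 (1.09%) lower, together 2.50% of those above the filter. The median difference was -0.05 and the SD of the differences across genes 0.385. Among the 175 genes, 66 lay below the filter level in TT naive cells and so passed through the nTh1 array alone, and 28 of the 136 lay below it in nTh1. Array medians ran from 6.52 to 6.70.

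**Figure D1:**
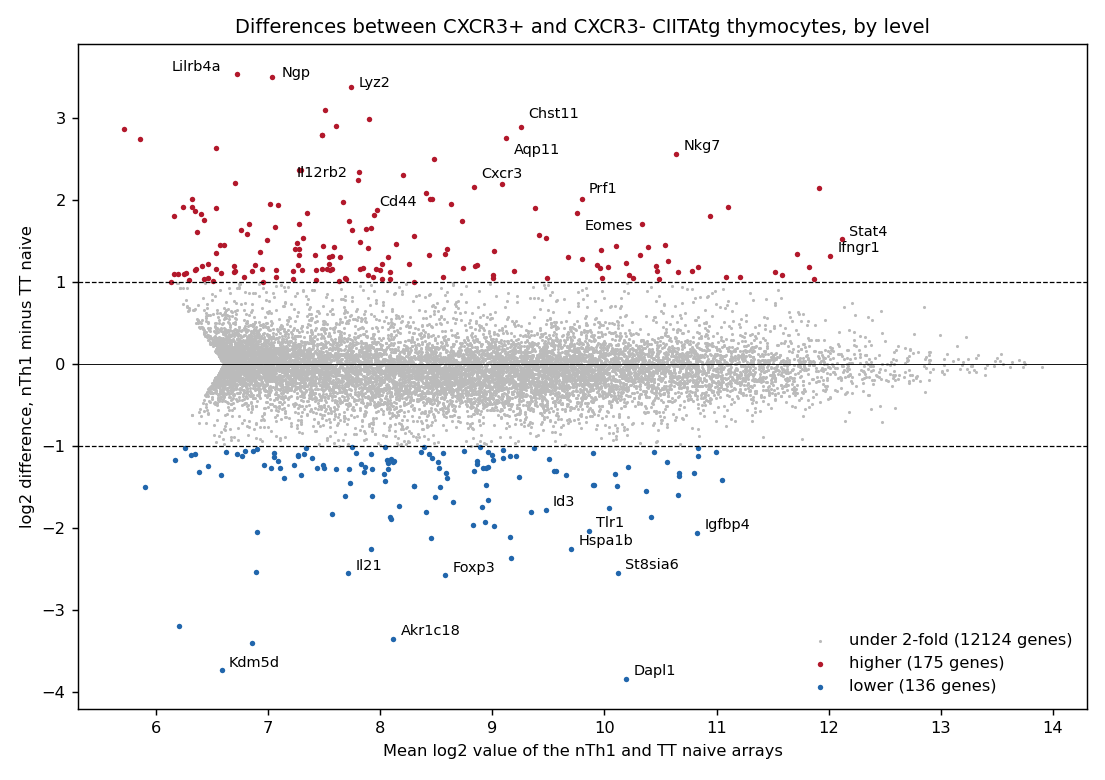
Difference in log2 value (nTh1 minus TT naive, vertical axis) against the mean log2 value of the nTh1 and TT naive arrays (horizontal axis); each point is a gene above the level filter and dashed lines mark 2-fold. The 175 higher genes reach 3.53 (Lilrb4a) and the 136 lower genes reach -3.83 (Dapl1).

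The labels were checked before the comparison was read. Cxcr3 gave 7.76 in TT naive and 9.91 in nTh1 cells, 4.46-fold apart, in the direction of the sort. It was 9.80 on the array labelled naive and 10.53 in cTh1. The array labelled naive therefore had as much Cxcr3 as nTh1, and it also had Zbtb16, the gene of the innate-like T cell factor PLZF, at 12.23, where TT naive and nTh1 had 9.36 and 9.88. The mean level of MHC class II genes was 10.54, 10.89, 11.05 and 9.79, so the array labelled naive was not below the CIITAtg arrays there. Cxcr3 alone cannot tell the array labelled naive from nTh1, so every direction given here rests on the labels. Cd4 gave 12.63, 12.42, 12.33 and 12.72, and Cd3e, a chain of the T cell receptor complex, 12.95, 12.90, 12.88 and 13.11, so these lineage genes were at like levels on all 4 arrays. Cd8a was below the filter level in both thymocyte populations, at 6.22 and 6.42, against 10.31 in cTh1. The gene of CD62L was not analysed here.

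Y-linked transcripts differed between the sorted populations. Kdm5d, a histone demethylase gene, gave 8.46, 4.72, 8.17 and 4.72, and Eif2s3y, a translation factor gene, 8.55, 5.16, 8.61 and 4.97. Uty gave 7.80, 4.61, 7.41 and 4.48, while Xist, the RNA of the inactive X chromosome, lay between 12.56 and 13.25 on all 4 arrays. Kdm5d, Eif2s3y and Uty thus lay above the filter level of 6.61 in TT naive and below it in nTh1. TT naive and nTh1 therefore differed in transcripts of the Y chromosome as well as in the CXCR3 sort. For every other gene compared, a difference between animals, sex included, cannot be told apart from one between sorted cells. How far the animals set the differences given here was not tested.

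Of the genes used by Th1 cells, 10 of the 21 list members above the filter were called higher in nTh1 cells, where 1.41% of all genes were, and 1 was lower, where 1.09% of all genes were. The same shares of all genes stand behind the counts of every list that follows. Over the 23 measured members of the list the median difference was 0.81, and 19 members were higher by any amount. The 10 were Nkg7, Il12rb2, Cxcr3, Ccl3, Eomes, Fasl, Stat4, Ifng, Il18rap and Il2rb, while T-bet stayed under 2-fold. Cxcr3 is the gene of the sort, so its call was fixed by the design, and Ifng, Ccl3 and Il18rap lay below the filter level in TT naive and entered through the nTh1 array alone. The list was drawn up with earlier results of these arrays known. In a bulk sample, fewer cells of a type and less RNA per cell cannot be told apart.

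Nkg7, a protein of cytotoxic granules, had the largest difference of the Th1 list. It gave 9.36, 11.92, 11.73 and 12.64, a difference of 2.56 or 5.91-fold. TT naive was the low array, and the other arrays lay within 1 log2 unit of each other. Xcl1, the chemokine lymphotactin, gave 7.05, 9.36, 10.02 and 7.18, a difference of 2.30. Here nTh1 and the array labelled naive were high, and TT naive and cTh1 low. Samd3, a gene transcribed in NK and memory-type T cells, gave 7.23, 9.72, 8.82 and 8.52, a difference of 2.49, with nTh1 the highest array.

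These genes are among 8 genes called higher in nTh1 whose promoter held the letters GGTGTGA, the core that T-box factors recognise, on either strand. The others were Adgrg1, Cyp4f18, Sidt1, Tex45 and Tspan9, and among the lower genes Gpr83, Kcnf1 and P2rx7 held it. The stretches searched are the 250 bases before and 50 after each RefSeq start on GRCm38.p6, 5′ to 3′ on the gene's strand, and the T-box letters are in capitals. They are shown because Eomes, named in the study's title, is a T-box factor, and they let the place of the letters be seen.
Nkg7 (chr7:43436888-43437187, plus strand): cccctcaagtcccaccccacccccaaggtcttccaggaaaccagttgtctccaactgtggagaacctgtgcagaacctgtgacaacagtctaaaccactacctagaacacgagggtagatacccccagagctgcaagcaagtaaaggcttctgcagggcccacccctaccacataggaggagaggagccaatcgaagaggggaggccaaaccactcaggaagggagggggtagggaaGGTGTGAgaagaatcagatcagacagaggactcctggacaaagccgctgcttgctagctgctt
Xcl1 (chr1:164935473-164935772, minus strand): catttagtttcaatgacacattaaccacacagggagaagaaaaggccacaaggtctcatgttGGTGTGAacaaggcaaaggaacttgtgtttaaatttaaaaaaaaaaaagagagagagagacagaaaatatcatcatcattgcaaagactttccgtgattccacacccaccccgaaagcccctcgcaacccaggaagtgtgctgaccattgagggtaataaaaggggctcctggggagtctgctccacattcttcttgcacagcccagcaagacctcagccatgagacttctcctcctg
Samd3 (chr10:26229457-26229756, plus strand, letters on the opposite strand as TCACACC): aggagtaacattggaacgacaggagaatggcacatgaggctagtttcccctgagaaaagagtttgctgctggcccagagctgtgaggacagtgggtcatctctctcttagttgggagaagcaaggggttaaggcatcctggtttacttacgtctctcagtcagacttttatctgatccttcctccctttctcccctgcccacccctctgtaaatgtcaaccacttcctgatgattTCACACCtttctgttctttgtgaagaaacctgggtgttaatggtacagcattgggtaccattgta
The letters began at -13 in Nkg7, -188 in Xcl1 and -15 in Samd3, counted from the start. Of the promoters of genes called higher, 8 of 169 (4.73%) held them, against 3 of 140 (2.14%) for lower genes, 408 of 12281 (3.32%) for all genes above the filter and 3.98% of all 32851 promoters of the table. The counts are small, and a match is a description of the letters, not a binding site or a cause.

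Among the receptors and signal carriers of the Th1 pathway, Il12rb2, the IL-12 receptor chain that Th1 cells gain, was close to the filter level in TT naive and well above it in nTh1. Its values were 6.69, 8.93, 8.83 and 12.10, a difference of 2.24 or 4.73-fold. Il12rb1, the shared IL-12 receptor chain, did not follow it, with 7.53 and 7.54 in the sorted thymocytes. Stat4, the transcription factor activated by IL-12, gave 11.36, 12.88, 11.81 and 12.79, a difference of 1.52 that put nTh1 beside cTh1. Il18rap, the accessory chain for IL-18, gave 6.14, 7.27, 8.17 and 10.85, a difference of 1.13. Its partner chain Il18r1 was 8.27 in both thymocyte populations and 11.78 in cTh1. For both receptors, then, 1 chain was higher in nTh1 and the other was level. Ifngr1, the ligand-binding chain of the interferon gamma receptor, gave 11.35, 12.67, 11.69 and 12.83, a difference of 1.32.

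Of the chains of the IL-15 receptor, Il2rb and Il15ra were read, and both were called higher. The common gamma chain was not analysed here. Il2rb, the beta chain that IL-2 and IL-15 share, gave 11.35, 12.39, 12.22 and 13.03, a difference of 1.04. Il15ra, which presents IL-15, gave 7.35, 8.44, 7.76 and 8.52, a difference of 1.09. Both were lowest in TT naive cells. Over the cytokine receptor list, 5 of 27 members above the filter were called higher, namely Il12rb2, Ifngr1, Il18rap, Il15ra and Il2rb, and 1 was lower, Il17rb, a receptor for IL-25 (10.33 and 8.98). The list median was 0.01, so the rest of the receptors were spread around 0. Of 22 JAK, STAT and SOCS genes only Stat4 reached 2-fold, and 11 of the 22 were above 0 and 11 below.

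Of the transcription factors, Eomes gave 8.84, 10.68, 10.03 and 7.94, a difference of 1.84 or 3.57-fold. It was highest in nTh1, next on the array labelled naive, and lowest in cTh1. Tbx21, which encodes T-bet, followed another order, at 7.11, 7.92, 9.81 and 11.25, with a difference of 0.81. Runx3, the partner of T-bet at the interferon gamma gene, gave 9.71, 10.70, 9.86 and 11.09, and its difference of 0.99 is just outside the 2-fold threshold, where Nr4a2 at 1.00 is just inside. Hlx, another Th1 factor, gave 6.78 and 6.92. In the wider list of T lineage factors 1 of 33 members above the filter was called higher, Eomes, and 2 were lower, Foxp3 and Id3. Irf8, an interferon regulatory factor, was higher by 0.86 and Ikzf3, the gene of Aiolos, by 0.72, both under 2-fold. Gata3, the Th2 factor, differed by -0.12 and Zbtb7b, the CD4 lineage factor ThPOK, by -0.49.

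The secreted products split. Ifng gave 5.88, 7.34, 8.80 and 11.19, a difference of 1.46, with the TT naive value below the filter level and nTh1 below both remaining arrays. Ccl3, a chemokine of activated T cells and macrophages, gave 6.05, 8.00, 6.86 and 8.13, a difference of 1.95. Ccl4, its close relative, differed by 0.48 and Ccl5 by 0.81. Tnf was lower in nTh1, at 9.95, 9.13, 10.49 and 11.14 (difference -0.82), and Lta, lymphotoxin alpha, differed by -0.49. Interferon gamma and Ccl3 transcripts were thus higher where Tnf and Lta were not. Ly6c2, at -1.12, was the only Th1 list member called lower; it belongs to a multigene family, so its reading is uncertain.

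**Figure D2:**
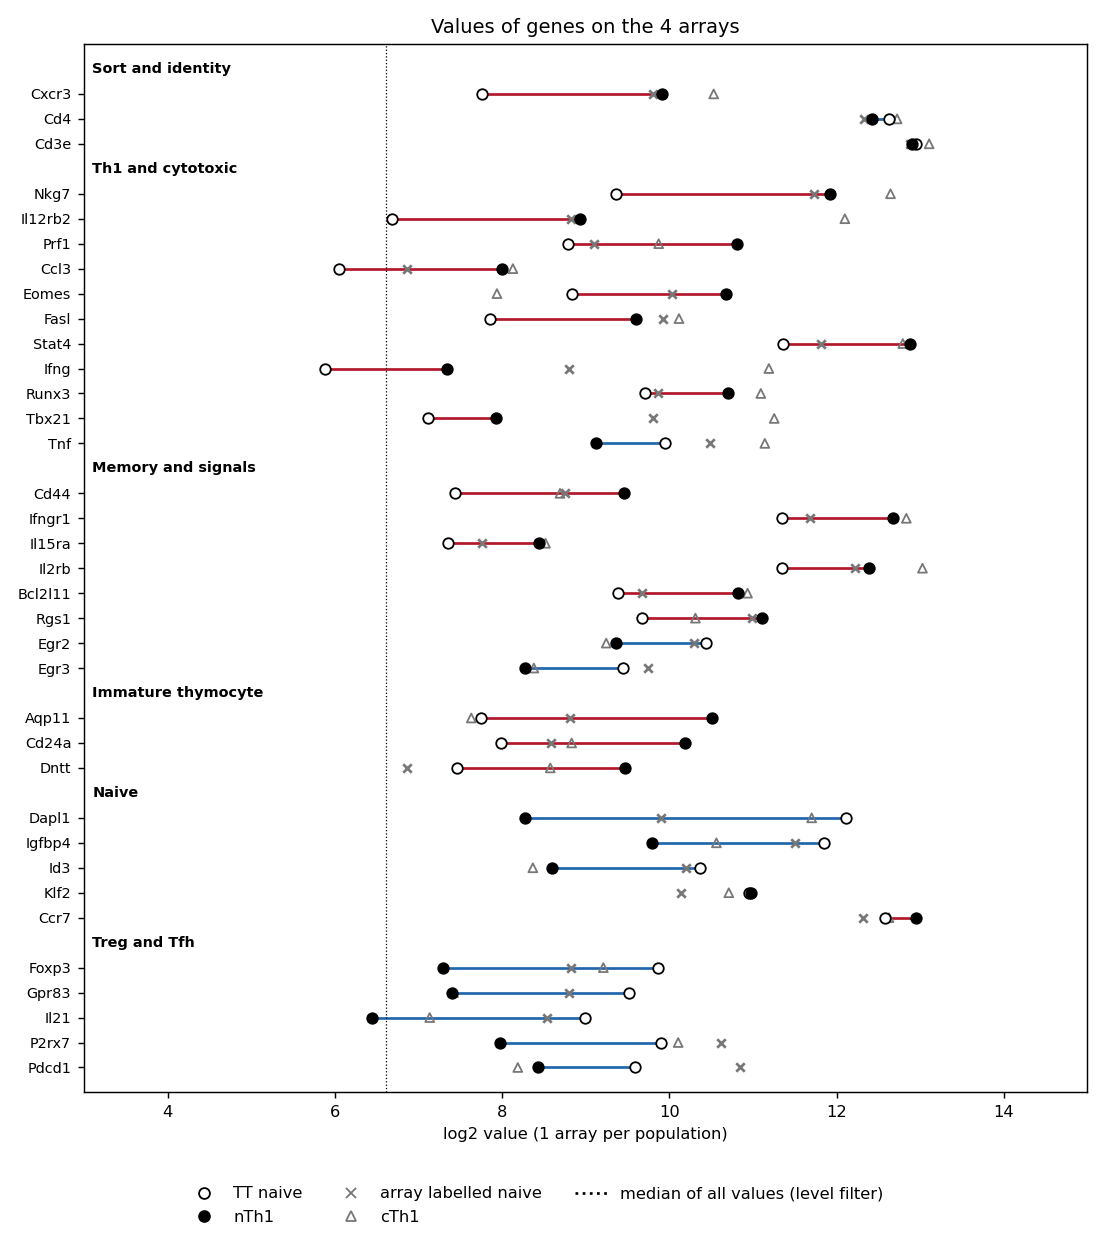
Log2 values (horizontal axis) of single genes on the 4 arrays, 1 array per population; a red line joins TT naive (open circle) and nTh1 (filled circle) where nTh1 is higher, a blue line where it is lower, and the dotted line is the level filter. Nkg7, Il12rb2 and Eomes lie to the right in nTh1, and Dapl1, Foxp3 and Il21 to the left.

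Cytotoxic granule genes differed by gene. Of 18 above the filter 4 were called higher (1.41% of all genes), none was called lower, and the median was 0.20 over the 20 measured. Prf1, the pore-forming perforin, gave 8.79, 10.81, 9.10 and 9.87, a difference of 2.02, and nTh1 was the highest of all 4 arrays. Fasl, the death ligand, gave 7.85, 9.60, 9.93 and 10.12, a difference of 1.75, with TT naive alone low. Gzma, granzyme A, gave 5.94, 7.58, 7.83 and 10.52, a difference of 1.64 that started below the filter level. Gzmb, granzyme B, stayed below the filter in both thymocyte populations (5.59 and 6.02), against 12.50 in cTh1. Gzmk gave 6.63 and 6.82, Gzmm 6.73 and 6.86, and Ctsw, a protease of cytotoxic cells, 11.49 and 11.42. Perforin was therefore higher without granzymes B, K or M reaching 2-fold.

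Few NK receptor genes were above the filter, 7 of the 13 measured, and 1 was called higher. That was Klrb1f, a member of the NKR-P1 lectins, at 6.54, 8.08, 8.05 and 10.09, a difference of 1.54. Klrb1f lay below the filter level in TT naive and so entered through the nTh1 array alone. Klrk1, the activating receptor NKG2D, gave 5.15 and 6.24, and Klrc1, of the NKG2 receptors, 5.26 and 6.24. Both stayed below the filter in the thymocytes while cTh1 had 8.65 and 9.58. Adgrg1, the adhesion receptor GPR56 of cytotoxic lymphocytes, gave 7.03, 8.91, 7.37 and 7.08, and nTh1 alone was high.

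Markers of other blood cells stood beside these Th1 and cytotoxic genes. All 8 measured genes of the NK cell list were higher by some amount in nTh1, with a median of 1.39, and their mean level was 6.99 in TT naive and 8.18 in nTh1. The 5 called higher were Eomes, Tyrobp, Fcer1g, Gzma and Il18rap, of which Eomes, Gzma and Il18rap are also Th1 or cytotoxic genes. Tyrobp and Fcer1g, the signalling adaptors of NK and myeloid cells, gave 6.85 and 8.59, and 7.09 and 8.75. Ncr1 and Klrb1c, which define NK cells, stayed below the filter in both populations, at 5.40 and 5.75, and 4.84 and 5.12. How far cells other than T cells set the Th1 and cytotoxic values was not tested.

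Macrophage and monocyte genes had the most members called higher of any list, 13 of 22 above the filter (1.41% of all genes), with a median of 1.14 over 25 measured and 24 higher by any amount. Their mean level was 6.69 in TT naive and 8.05 in nTh1, with 7.56 on the array labelled naive and 7.53 in cTh1. In TT naive 14 of the 25 lay below the filter level, in nTh1 3. Lyz2, the lysozyme of myeloid cells, gave 6.05, 9.44, 7.92 and 7.17, a difference of 3.38 or 10.4-fold. The complement genes of tissue macrophages were higher to different extents, with C1qb at 6.64, 8.98, 8.59 and 6.61, C1qc differing by 1.45 and C1qa by 0.66. Mpeg1, the macrophage perforin-like protein, gave 5.60, 7.81, 6.77 and 7.36, and Adgre1, the F4/80 antigen, 5.37, 7.28, 6.15 and 5.98. Csf1r, the receptor that macrophages need to live, differed by 1.14, Cd68 by 0.94 and Fcgr3, a receptor for immunoglobulin G, by 0.16. Among the genes called higher, Lyz2, C1qc, Mpeg1, Adgre1, Csf1r, Cybb and Clec7a lay below the filter level in TT naive. They entered the count through the nTh1 array alone.

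Neutrophil genes were higher as well, in all 16 measured by some amount, with 5 of 11 above the filter called higher (1.41% of all genes) and a median of 0.78. Their mean level was 5.78, 6.91, 5.90 and 6.24, so nTh1 stood above the other 3 arrays, and 5 of the 16 were below the filter in nTh1 against 13 in TT naive. Ngp, a granule protein of maturing neutrophils, gave 5.29, 8.79, 5.25 and 5.66, a difference of 3.50. Retnlg gave 4.49, 7.23, 4.88 and 4.81, Ltf, the lactoferrin gene, 5.98, 7.68, 5.80 and 5.85, and Lcn2, lipocalin 2, 6.23, 7.90, 6.21 and 6.52. For these granule genes nTh1 alone was high. With Mmp8 they were the 5 called higher, and all 5 lay below the filter level in TT naive. They entered the count through the nTh1 array alone. S100a8, which defines neutrophils, was below the filter even in nTh1, at 4.10 and 5.78, and Camp gave 5.33 and 5.62.

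B cell genes differed less. Of 8 above the filter 2 were called higher, Cd79a (6.50, 7.64, 6.53 and 10.29) and Cd79b (difference 1.06), the signalling chains of the B cell receptor, and the median over 14 measured was 0.59. Cd79a lay below the filter level in TT naive and so entered through the nTh1 array alone. Ms4a1, the CD20 gene, gave 5.27 and 6.45, both below the filter. The CD8 T cell list had 1 of 5 members above the filter called higher, Nkg7, which is also a Th1 gene, and Cd8b1 gave 9.38 and 9.75. Gamma delta T cell genes had a median of 0.10, thymic epithelial genes -0.05 and dendritic cell genes 0.33, with Itgax, the CD11c gene, higher by 1.04. Itgax lay below the filter level in TT naive and so entered through the nTh1 array alone. Of the 3 measured erythroid genes Car2, carbonic anhydrase 2, was higher by 1.33. In all, 26 of the 175 higher genes and 3 of the 136 lower ones were in a list of other cells or of the Y chromosome. Without these lists 149 and 133 remained. The lists left out hold Th1 genes such as Eomes and Nkg7. Myeloid genes such as Ccl6, Ccl9 and Clec12a were in none of them, so the 149 are not free of genes of other cells.

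**Figure D3:**
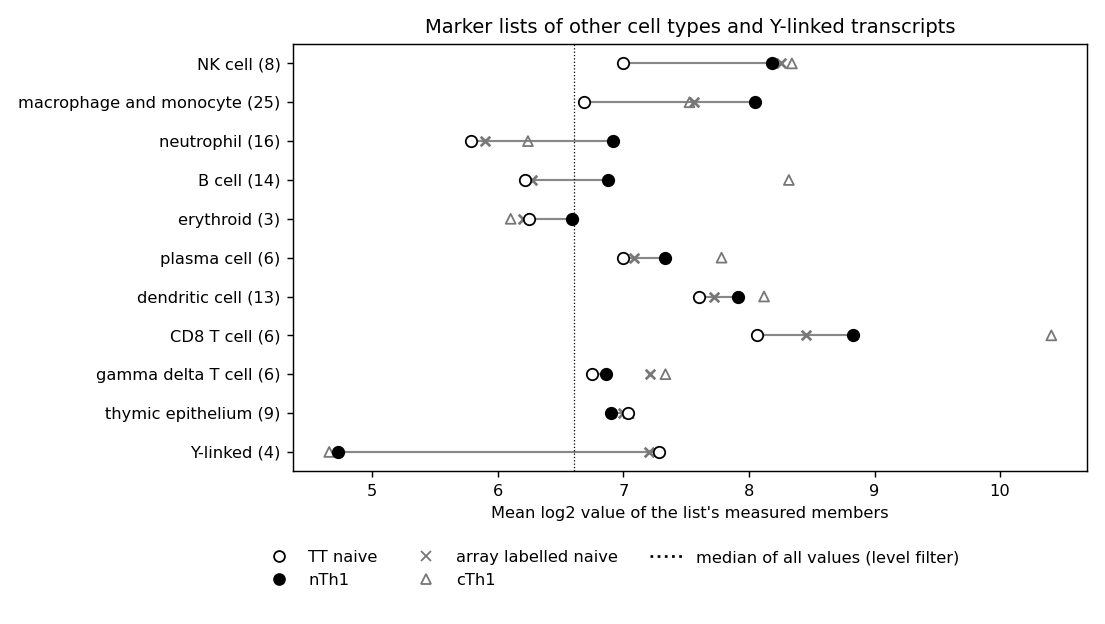
Mean log2 value (horizontal axis) of the measured members of each marker list of other cell types and of Y-linked genes, with the number of members in brackets; each symbol is 1 array and the dotted line is the level filter. Macrophage and neutrophil lists moved from 6.69 to 8.05 and from 5.78 to 6.91 between TT naive and nTh1, and Y-linked genes from 7.29 to 4.72.

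Cd44, the adhesion receptor of antigen-experienced T cells, gave 7.44, 9.45, 8.75 and 8.69, a difference of 2.02 or 4.04-fold. TT naive was the low array. The rest of the memory and adhesion list went both ways. Of 24 members above the filter 3 were called higher, Cd44, Il2rb and Ctla2a, and 2 were lower, with a median of -0.07 over 27. Ctla2a gave 6.09, 8.88, 9.11 and 10.41 (difference 2.79) while its near-identical relative Ctla2b differed by 0.06, so the split between them is uncertain. Ctla2a also lay below the filter level in TT naive and entered through the nTh1 array alone. Itgb7, the integrin chain of gut homing, was lower in nTh1, at 11.46, 10.13, 10.90 and 11.22, a difference of -1.33. S100a6, a calcium-binding protein of activated cells, gave 7.87, 6.77, 9.95 and 9.98, a difference of -1.10. Ahnak (-0.95), S100a10 (-0.70), Vim (-0.54) and Lgals1 (-0.54), all transcribed in effector and memory T cells, were also below 0 but under 2-fold. Lgals3 (0.90), Ccr2 (0.65) and Itgb1 (0.56) were above 0.

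Chemokine receptors other than Cxcr3 were mostly level, with a median of 0.19 over 20. Ccr8, a receptor of Th2 and regulatory T cells, was the second of 2 called higher, at 8.96, 10.02, 10.95 and 8.10. Cxcr6, known from effector and innate-like T cells, gave 7.78, 8.19, 10.56 and 11.47, so both thymocyte populations were low. Ccr7, which leads cells to lymph nodes, gave 12.58 and 12.95, and Ccr9, of thymocytes and gut T cells, 7.39 and 7.60. Ccl6 and Ccl9, chemokines of myeloid cells, were higher in nTh1 by 1.91 and 1.30. Ccl6 lay below the filter level in TT naive and so entered through the nTh1 array alone.

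Genes of immature thymocytes were higher in a few members. Of 23 above the filter 4 were called higher (1.41% of all genes), 19 were under 2-fold, none was called lower, and the median was 0.31 over 25. Aqp11, an aquaporin, gave 7.75, 10.51, 8.82 and 7.63, a difference of 2.76. Cd24a, the heat-stable antigen lost as thymocytes mature, gave 7.99, 10.18, 8.58 and 8.83, and its second probe set differed by 1.22 where the first differed by 2.19. Dntt, the terminal transferase, gave 7.46, 9.47, 6.87 and 8.58, a difference of 2.01. nTh1 was the highest array for all of these. Arpp21 gave 6.26, 7.32, 5.94 and 5.59, so it lay below the filter level in TT naive and entered through the nTh1 array alone. Other genes of early thymocytes stayed under 2-fold, with Myb higher by 0.87, Ptcra, the pre-T cell receptor chain, by 0.58 and Sox4 by 0.53. Rag2, of receptor rearrangement, was below the filter at 5.38 and 6.19.

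Genes that follow a signal through the T cell receptor did not move as 1 block. Of 33 above the filter 6 were called higher and 2 lower, with a median of 0.08. Bcl2l11, the death factor BIM of negative selection, gave 9.38, 10.82, 9.67 and 10.94, a difference of 1.44. Rgs1, a brake on chemokine receptors, gave 9.67, 11.10, 10.99 and 10.31, a difference of 1.43. Tnfaip3 (1.18), Fosb (1.17), Dusp5 (1.13) and Nr4a2 (1.00) were the other 4. On the opposite side stood early growth response genes, with Egr2 at 10.44, 9.36, 10.30 and 9.25 and Egr3 at 9.45, 8.28, 9.74 and 8.38. Egr1 differed by -0.68 and their partner Nab2 by -0.73, while Nr4a1, the gene of NUR77, was nearly level (11.51 and 11.62) and Cd69 differed by 0.16. Egr2 and Egr3 were thus called lower in nTh1, and 6 other genes of the list higher. No gene of the receptor signalling machinery reached 2-fold, with 24 of 24 between -0.49 and 0.64. Of the BCL2 family, Bcl2l11 was the only member at least 2-fold away, followed by Bcl2l1 (0.72) and Bmf (0.71), and Bcl2 gave 12.36 and 12.64.

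On the low side, Dapl1, a gene transcribed in naive T cells, had the largest difference of all named genes. It gave 12.11, 8.28, 9.90 and 11.70, a difference of -3.83, which is 14.2-fold lower in nTh1. nTh1 was the lowest array and cTh1 stayed near TT naive. Its promoter is shown because it held the forkhead letters GTAAACA (in capitals), bound by FOXO factors of naive T cells.
Dapl1 (chr2:59484403-59484702, plus strand): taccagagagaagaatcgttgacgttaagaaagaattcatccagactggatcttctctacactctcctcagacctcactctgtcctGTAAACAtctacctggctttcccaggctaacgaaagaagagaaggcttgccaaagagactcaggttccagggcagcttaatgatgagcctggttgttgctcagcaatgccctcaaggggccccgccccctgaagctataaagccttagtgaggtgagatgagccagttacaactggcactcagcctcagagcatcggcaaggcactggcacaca
The letters began at -164. On either strand (GTAAACA or TGTTTAC) they were found in 3 of 140 promoters of lower genes (2.14%), 7 of 169 of higher genes (4.14%), 2.79% of those above the filter and 3.65% of all, and these counts are small too. The E-box CAGGTG (or CACCTG), the letters E proteins bind, was in 17.1%, 19.5%, 19.0% and 20.2%.

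The naive and egress list did not follow Dapl1 as a whole. Of its 29 measured members, all above the filter, 4 were called lower and 1 higher, against 1.09% and 1.41% of all genes, and the median was -0.11. Igfbp4, an IGF-binding protein of naive T cells, gave 11.85, 9.80, 11.51 and 10.56, a difference of -2.06. Cd55, the complement regulator, gave 9.49, 8.19, 6.52 and 8.67, a difference of -1.30, and Tdrp differed by -1.09. Pde2a, a cyclic nucleotide phosphodiesterase, was the member called higher, at 10.24, 11.43, 11.28 and 11.58. Of the factors and receptors that keep naive T cells in circulation, Klf2, Lef1, Il7r and Foxo1 were nearly level. Klf2 gave 10.96 and 10.98, Lef1 12.68 and 12.49, Il7r 12.67 and 12.77, and Foxo1 11.20 and 11.15. S1pr1, the egress receptor, differed by -0.47, which is under 2-fold.

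Id3, an inhibitor of E proteins, gave 10.37, 8.59, 10.20 and 8.37, a difference of -1.77, so nTh1 and cTh1 were both low. Its relative Id2 gave 12.20, 11.78, 12.71 and 12.74, a difference of -0.43. E protein genes lay above 0, with Tcf12 at 0.66 and Tcf3 at 0.36. Dtx1, a Notch target, gave 10.92, 9.17, 8.99 and 8.48, and both of its probe sets were lower, by -1.75 and -1.04.

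Foxp3, the factor that specifies regulatory T cells, gave 9.87, 7.29, 8.82 and 9.21, a difference of -2.57, which is 5.95-fold lower in nTh1. nTh1 was the lowest of the 4 arrays. Of the 22 regulatory T cell genes above the filter 5 were called lower and 2 higher (1.09% and 1.41% of all genes), with a median of -0.34, and 18 of 25 measured were below 0. Gpr83, a receptor of Foxp3+ cells, gave 9.51, 7.40, 8.80 and 7.42. Nt5e, the ectonucleotidase CD73, gave 10.64, 9.17, 11.27 and 9.98, and Izumo1r, the folate receptor 4, 11.15, 9.96, 11.15 and 10.10. Tnfrsf9, the costimulatory receptor 4-1BB, differed by -1.38. The members called higher were Ccr8 and Entpd1, the ectonucleotidase CD39, at 6.70, 7.75, 8.38 and 9.79. Il2ra (0.42), Ctla4 (-0.10) and Tnfrsf18 (-0.04), which activated T cells also use, were under 2-fold, and Ikzf2, the gene of Helios, was at -0.74.

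Follicular helper genes had 4 of 15 members above the filter called lower and none higher (1.09% and 1.41% of all genes). Their median was -0.53, and 13 of the 16 measured were below 0. Il21, their cytokine, gave 8.99, 6.44, 8.53 and 7.13, a difference of -2.55 that took it below the filter level in nTh1. P2rx7, the ATP receptor, gave 9.89, 7.98, 10.61 and 10.11, and Cd200 8.73, 7.12, 9.01 and 8.39. Pdcd1, the PD-1 gene, gave 9.59, 8.43, 10.85 and 8.19. Bcl6, the factor of these cells, did not go the same way, at 8.81 and 9.15, and Cxcr5 was level at 8.07 and 8.06. Icos (-0.44), Btla (-0.51), Slamf6 (-0.58), Sh2d1a (-0.56) and Cd40lg (-0.69) were all below 0 and under 2-fold.

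Receptors that restrain or costimulate T cells went both ways. Lag3 gave 7.97, 6.63, 7.73 and 9.92, a difference of -1.35, and with Pdcd1 and Cd200 made up the 3 inhibitory genes called lower. Ceacam1 was higher by 1.05. Lilrb4a, an inhibitory immunoglobulin-like receptor with a near copy in the genome, gave 4.96, 8.49, 6.85 and 11.92. Its difference of 3.53, the largest on the high side, is uncertain because of that copy. It also lay below the filter level in TT naive and entered through the nTh1 array alone. Macrophage genes were higher on the same array, and which cells Lilrb4a came from was not tested. Tigit differed by 0.68. In the TNF family Fasl was higher, Tnfrsf9 and Tnfrsf25 (8.71, 7.43, 8.35 and 9.49) lower, and 17 of 25 measured were below 0.

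Other helper programmes and innate-like genes showed small sets. In the Th2 and Th17 list, where 10 of 17 were above the filter, Ahr, the aryl hydrocarbon receptor (7.26, 8.44, 8.64 and 7.88), and Ccr8 were higher and Il17rb was lower. Il4 was at -0.91 and Il13 at -0.63. In the innate-like list Xcl1 and Gzma were higher and Il17rb and Id3 lower, with a median of -0.33 over 17, and Zbtb16 differed by 0.52.

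**Figure D4:**
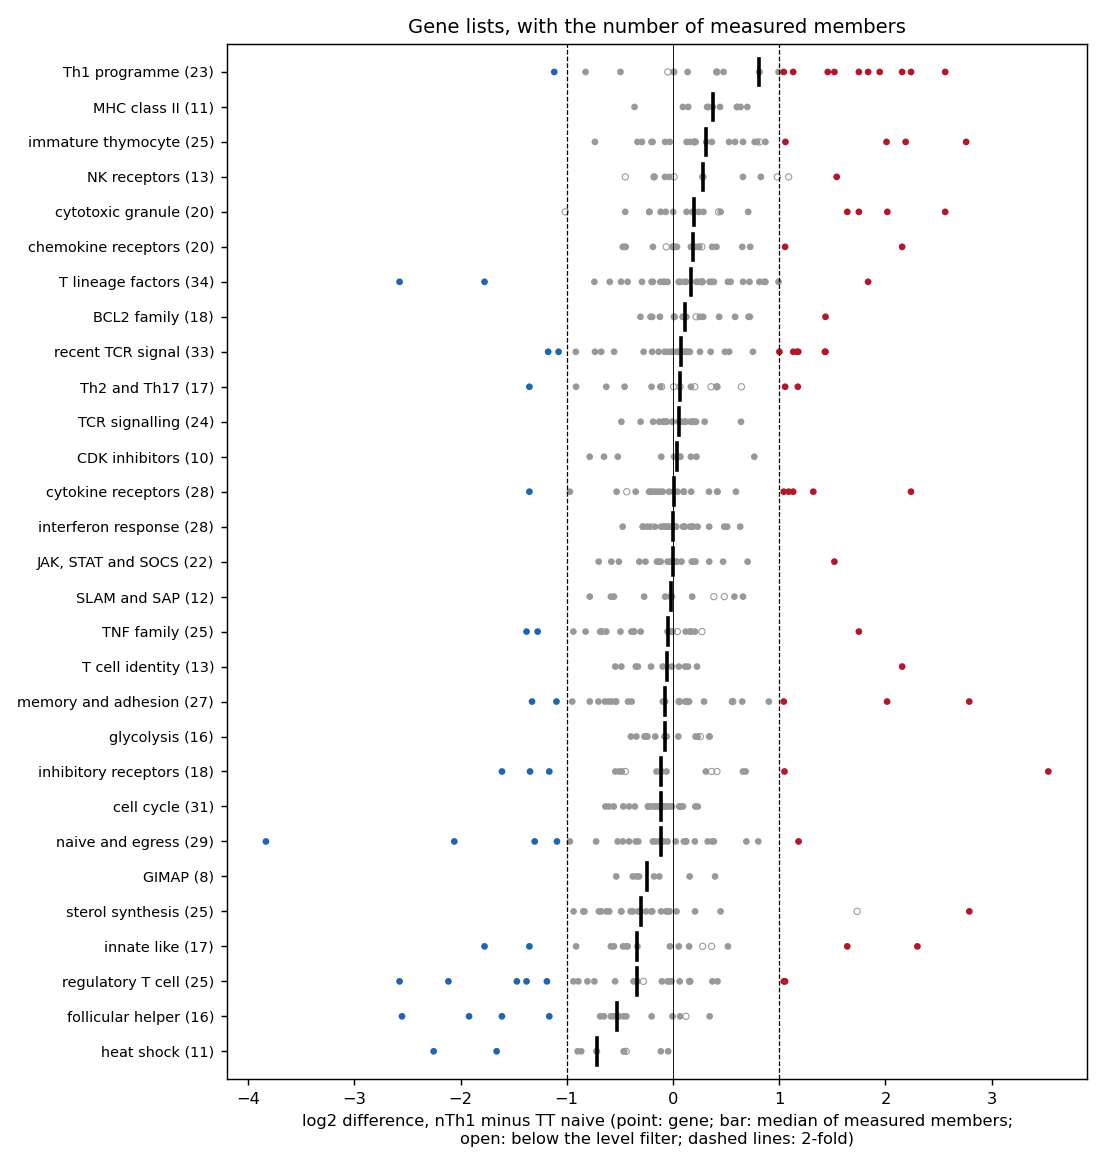
Difference in log2 value (nTh1 minus TT naive, horizontal axis) of every measured member (points; open where below the level filter, red and blue past 2-fold) of each gene list (rows, number measured in brackets), with the median as a black bar and 2-fold as dashed lines. Of the lists plotted, Th1 genes have the highest median, 0.81, and heat shock genes the lowest, -0.72.

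Heat shock genes were all below 0, 11 of 11 measured, with a median of -0.72. Of 10 above the filter 2 were called lower, Hspa1b (10.83, 8.58, 9.19 and 6.44) and Hspa1a (9.80, 8.14, 8.57 and 6.71), which encode nearly the same HSP70 protein, so reads of one and the other cannot be split with certainty. Hsph1 (-0.90), Dnajb1 (-0.86), Hspd1 (-0.72) and Bag3 (-0.72) followed, and Hspa8, the constitutive form, differed by -0.11. TT naive was the highest of the 4 arrays for both HSP70 genes. Ddit4, a stress gene that holds back mTOR, gave 11.35, 9.48, 10.16 and 11.52, a difference of -1.87.

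Sterol synthesis genes were mostly lower by small amounts, 20 of 25 below 0 with a median of -0.30. Fdft1, squalene synthase, was at -0.94, Cyp51 at -0.84 and Sqle at -0.63, all under 2-fold. Fads2, a fatty acid desaturase, went the other way, at 6.09, 8.88, 6.95 and 11.41, a difference of 2.79. It lay below the filter level in TT naive and so entered through the nTh1 array alone. Cell cycle genes stayed within -0.64 and 0.23 with a median of -0.11, and Mki67 gave 10.24 and 10.03. Interferon response genes had a median of 0.00, glycolysis genes -0.08, GIMAP genes -0.25 and ribosomal protein genes -0.02, and none of these lists had a member at 2-fold. MHC class II genes were above 0 in 10 of 11, with a median of 0.37 and a highest difference of 0.70 (H2-DMb2). They stand beside the macrophage and B cell values given above. Their mean level was 10.54, 10.89, 11.05 and 9.79, so the array labelled naive, described as wild-type, was not below the CIITAtg arrays. Whether that array carries the transgene was not tested. Of all 42 lists, 13 had no member past 2-fold.

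Only 57 of the 175 higher genes and 27 of the 136 lower ones were in any list. Outside the lists, Chst11, a chondroitin sulfotransferase, gave 7.82, 10.70, 9.64 and 9.26, a difference of 2.89. Fn1, fibronectin, gave 5.96, 9.06, 6.36 and 6.25, with nTh1 alone high. Abcb1a, a drug efflux pump, gave 7.37, 9.46, 8.55 and 8.19, and Efna5, an ephrin ligand, 6.12, 8.07, 6.93 and 5.72. For all of these TT naive was lower than nTh1 and nTh1 was the highest array. Igsf23 (10.15 and 12.06), Dock9 (8.43 and 10.33), a guanine nucleotide exchange factor, Prrt1 (7.66 and 9.61) and Slc43a1 (6.42 and 8.27), an amino acid transporter, were higher by 1.91, 1.91, 1.95 and 1.85. Ly86 (2.36) and Clec12a (1.92) are genes of myeloid or B cells. The immunoglobulin kappa segments Igkv9-120 (2.86) and Igkv15-103 (1.97) belong to a large family and are uncertain. Of the genes in this paragraph, Fn1, Efna5, Slc43a1, Ly86, Clec12a and Igkv9-120 lay below the filter level in TT naive. They entered through the nTh1 array alone. Which cells the Fn1 transcript came from was not tested.

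On the low side outside the lists, Akr1c18, a steroid-metabolising reductase, gave 9.79, 6.45, 10.19 and 5.79, a difference of -3.35. St8sia6, a sialyltransferase, gave 11.39, 8.85, 11.03 and 9.96, and Ntrk3, a neurotrophin receptor, 10.35, 7.98, 10.47 and 7.26. Khdrbs3, an RNA-binding protein, gave 9.05, 6.79, 9.24 and 6.32. For Akr1c18, Ntrk3 and Khdrbs3 TT naive and the array labelled naive were high, and nTh1 and cTh1 low. For St8sia6 nTh1 was the lowest array, and cTh1 lay between nTh1 and the array labelled naive. Tlr1, a Toll-like receptor, gave 10.88, 8.85, 10.21 and 10.74, so nTh1 alone was low. Exph5 (-2.54), Chil5 (-2.05), Cap2 (-1.97), Ptgfrn (-1.96), Tns4 (-1.89), Cldn10 (-1.86), Irak3 (-1.83), Chl1 (-1.80), Adh1 (-1.74), Cpm (-1.72) and Amigo2 (-1.68) were further named genes at the low end.

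Higher and lower genes were unevenly spread over expression level. In 4 groups of like size by mean level, from lowest to highest, 60, 58, 22 and 35 were called higher and 29, 46, 38 and 23 lower. Protein-coding genes had 153 of 11438 (1.34%) higher and 129 (1.13%) lower, and long non-coding RNA genes 6 of 512 (1.17%) and 4 (0.781%). Probe sets outside the named genes were not read further here. Those with several symbols had 20 of 998 (2.00%) higher and 8 (0.802%) lower, and those with no symbol 542 of 8292 (6.54%) and 117 (1.41%). Genes with several probe sets above the filter did not always give 1 answer. Cux1, a homeobox factor, differed by 1.33 and 0.35 in its probe sets, Sidt1 by 1.08 and 0.83, and Ighm, the heavy chain of IgM, from 0.13 to 2.91 over 5.

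MicroRNA genes were above the filter in 147 of 478 measured. Of these, 8 (5.44%) were called higher and 1 (0.680%) lower, against 1.41% and 1.09% of all genes, with a median of 0.10. Probe sets with no symbol had 6.54% higher and 1.41% lower, so a larger share on the high side was not particular to miRNA genes. The miRNA genes are named here after their values were seen. The labelled cDNA was made from total RNA, so precursor, host transcript and mature miRNA were not measured apart. The mature sequences of 7 of the 9 genes were found in RefSeq, 10 sequences with 10 different seeds. Those of Mir340, Mir361 and Mir181b-1, which mammals share, are shown with the seed (bases 2 to 8) in capitals. For Mir340 and Mir361 the 5p arm alone is printed, and for Mir181b-1, the gene called lower, both arms are.
miR-340-5p: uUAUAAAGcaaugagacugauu
miR-361-5p: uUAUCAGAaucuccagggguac
miR-181b-5p: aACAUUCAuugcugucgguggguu
miR-181b-1-3p: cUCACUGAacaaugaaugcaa
Mir340 went from 5.32 in TT naive to 7.33 in nTh1, a difference of 2.02, and Mir361 from 5.86 to 7.21, both starting below the filter level. Mir5123 went from 10.84 to 12.98, a difference of 2.14. Mir181b-1, of the miR-181 family that is abundant in immature thymocytes and tunes T cell receptor sensitivity, was the lower one, from 8.72 to 7.53. Mir721 (1.40), Mir1967 (1.13), Mir1960 (1.00), Mir669j (1.22) and Mir669k (1.16) were the other higher ones. Mir1960, at 5.64 in TT naive and 6.64 in nTh1, also started below the filter level. Mir340, Mir361 and Mir1960 thus entered through the nTh1 array alone.

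Some genes past 2-fold lay next to each other. Among 12418 genes placed in RefSeq order, 20 adjacent pairs within 100 kb were both past 2-fold, 6 with both higher, 10 with both lower and 4 opposite. The pairs were chosen after values were seen. Ccl9, Ccl6 and Ccl3 formed a run of higher chemokine genes, and C1qb with C1qc, Clec12a with Clec7a, and Rundc3b with Abcb1a were higher together. Lower together were Igfbp4 and Tns4, Gpr83 and Izumo1r, Cd101 and Ptgfrn, Klhdc1 and Klhdc2, Rbm24 and Cap2, Hspa1b and Hspa1a, and the Y-linked Kdm5d, Eif2s3y and Uty.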

How the data were processed

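RNA of 4 mouse T cell populations was read on Affymetrix gene arrays, 1 array each. The deposited log2 values of 41345 probe sets came from RMA, run by the authors in Expression Console 1.3.1 according to the submitters' processing notes. RMA corrects background, equalises the arrays' distributions and summarises probes. The genome build behind the probe annotation was not given in the sources used here.

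Probe sets with several symbols (1814) or none (16010) named no gene. Of 22180 genes, 21994 had their gene ID in the RefSeq table of GRCm38.p6, used for names, biotypes and gene order. No test was made. Named genes were the 40 highest and 40 lowest (predicted and small RNA genes passed over), listed genes at or past 2-fold, the 6 largest differences per list and all members of the sort, Th1, memory, naive and lineage factor lists. The members, the 42 lists and this rule were chosen with earlier results of these data known. Promoters and miRNAs came from RefSeq tables. The scripts' counts were checked on simulated data. Alternatives were other level filters, centring, a loess correction (span 0.3), averaged probe sets, a 3-fold threshold, omission of other cells' lists and, chosen after seeing the data, probe sets picked on the nTh1 and TT naive arrays alone. Software was Python 3.11.15, numpy 2.4.6, pandas 2.3.3, statsmodels 0.14.6 and matplotlib 3.10.9.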

Additional observations from a re-analysis of the deposited data

Results flagged for a closer look

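Probe sets that named no gene stayed outside the comparison and held differences of their own. Among 8292 such probe sets past the level filter, 542 (6.54%) were higher by 2-fold or more in nTh1 and 117 (1.41%) lower, against 1.41% and 1.09% of named genes. Their median difference was 0.13, their differences ran from -4.42 to 3.86, and their mean log2 level was 8.31 in TT naive and 8.49 in nTh1. What these probe sets read was not tested.

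Among 998 probe sets with several gene symbols, 20 (2.00%) were higher by 2-fold or more and 8 (0.802%) lower, with differences from -1.53 to 2.30.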

How the results depend on the processing

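No paired analysis was possible because each population had 1 array, and for the same reason no replicate could be left out. The 175 higher and 136 lower genes became 213 and 149 with no level filter, 191 and 127 after centring, 183 and 125 after removal of the loess trend, 170 and 132 with the mean of all probe sets, 149 and 133 without lists of other cells and Y-linked genes, and again 175 and 136 with probe sets picked on the nTh1 and TT naive arrays alone, which was chosen after seeing the data. Leaving out the lists of other cells also removed Th1 genes such as Eomes and kept myeloid genes such as Ccl6. A filter at the 75th percentile left 99 higher and 98 lower genes, and a 3-fold threshold 58 and 36. Both of these settings keep fewer genes by construction. With that stricter filter list medians moved for the Th1 list (1.63), memory and adhesion (-0.42), regulatory T cells (-0.94), macrophages and monocytes (1.75), NK cells (1.70) and CD8 T cells (0.99), and lists with under 3 members left gave no value. The list median changed sign under an alternative in 6 of 42 lists, namely Th2 and Th17, cytokine receptors, JAK, STAT and SOCS, SLAM, CDK inhibitors and ribosomal proteins. Of 847 named genes, 22 moved by more than the probe-set SD with the mean of all probe sets, among them Cd24a and Dtx1, and 0 changed direction as called values. Low signal limits Gzmb, Ncr1, Klrb1c and S100a8, which were below the filter on both arrays.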
